A study of Mus musculus with 3 samples.

Results

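Integrins are surface receptors built from one α and one β chain, and leukocytes use them to hold on to endothelium, matrix and epithelium. The β7 chain pairs with α4 to bind the mucosal addressin MAdCAM-1, and with αE to bind E-cadherin. The α4β7 receptor is known for guiding mast cell progenitors to the intestine, and the β7 protein was one of the markers used to sort the cells studied here. The leukocyte chains described here are Itgb7, Itga4, Itgae, Itgb1, Itgb2, Itgal, Itgam, Itgb3, Itga2b and Itga2. They were chosen by name, as 10 of the 22180 genes with a level in the data, and every probe set that names one of them was read.

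The arrays measured 3 populations from the peritoneal cavity of untreated female BALB/c mice aged 10 to 11 weeks, with 1 array for each. Cells of 5 mice were pooled, and each array came from amplified RNA of 100 cells sorted in a pair of rounds. Both mast cell populations were lineage negative or low, with c-kit high, positive for FcεRI (the high-affinity IgE receptor) and T1/ST2, without CD127 and CD25, and with intermediate CD16/32. They were divided by side scatter, a measure of granularity, and by integrin β7: mast cell progenitors were low in side scatter with β7 high, whereas mature mast cells were high in side scatter with β7 negative, low or intermediate. Type 2 innate lymphoid cells were lineage negative and positive for CD127, CD25 and T1/ST2, with c-kit negative or low and FcεRI and CD16/32 negative. No integrin is among these named markers, and the members of the lineage mix are not described here. All values are log2 levels of the deposited table, in which 1 unit is a 2-fold difference. With 1 array for each population there is no replicate, no error and no test, so each difference describes these arrays and a small one cannot be told from measurement error. In a population, fewer cells with a transcript and less transcript per cell cannot be told apart.

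The marker genes followed the labels in part. Of 9 mast cell markers, 8 were 2-fold or more above the lymphoid array in mature mast cells (Gata2 was not), but 4 in progenitors (Cpa3, Cma1, Mcpt4 and Tpsb2). Kit, Fcer1a, Ms4a2, Hdc and Gata2 differed by under 2-fold between progenitors and the lymphoid population. Of 9 markers of type 2 innate lymphoid cells, Il7r and Klrg1 were 2-fold or more above both mast cell arrays, and 7 were not, among them Gata3, Rora and Il13, the last at 7.65 in progenitors and 7.41 on each of the other arrays. Cpa3, the mast cell carboxypeptidase gene, was at 12.30 in progenitors, 12.83 in the mature mast cells and 5.28 in the innate lymphoid cells. Il7r, which encodes CD127, was at 8.72 in innate lymphoid cells against 5.89 in progenitors and 5.76 in the mature mast cells. Of 47 genes measured for macrophages, T cells, B cells, platelets, neutrophils, basophils, eosinophils, natural killer cells and mesothelium, 0 had a range of 1 or more over the 3 arrays. Such a range was uncommon in general. It was reached by 782 genes, a count that leaves out Itgb1 and provisional, Mir and Snor names. The 22180 genes include those names, so the number among all 22180 is higher than 782. The levels of these markers ran from 3.60 to 7.67. A small range does not show that such cells were absent, since cells common to all 3 arrays would leave none. The median level was 6.32 on the progenitor array and 6.30 on each of the others. The table does not mark which levels are above background, so a level near or below these medians does not show that a transcript was present.

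Itgb1 was the chain with the widest range, and its low array was that of the progenitors. It encodes β1, the shared partner of α4, α2 and other α chains in receptors for VCAM-1, fibronectin, laminin and collagen. Its level was 6.15 in progenitors, 7.82 in the mature mast cells and 8.04 in the innate lymphoid cells. The progenitor level lay below the median of its array, whereas the other levels lay above theirs. The log2 difference of progenitors was -1.67 from mature mast cells and -1.89 from innate lymphoid cells. Because the dimmer level is under its array's median, the folds counted from that median are bounds, at least 2.83-fold and at least 3.30-fold lower. The other neighbours in the order, mature mast cells and innate lymphoid cells, differed by -0.22, or 1.17-fold.

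**Figure D1:**
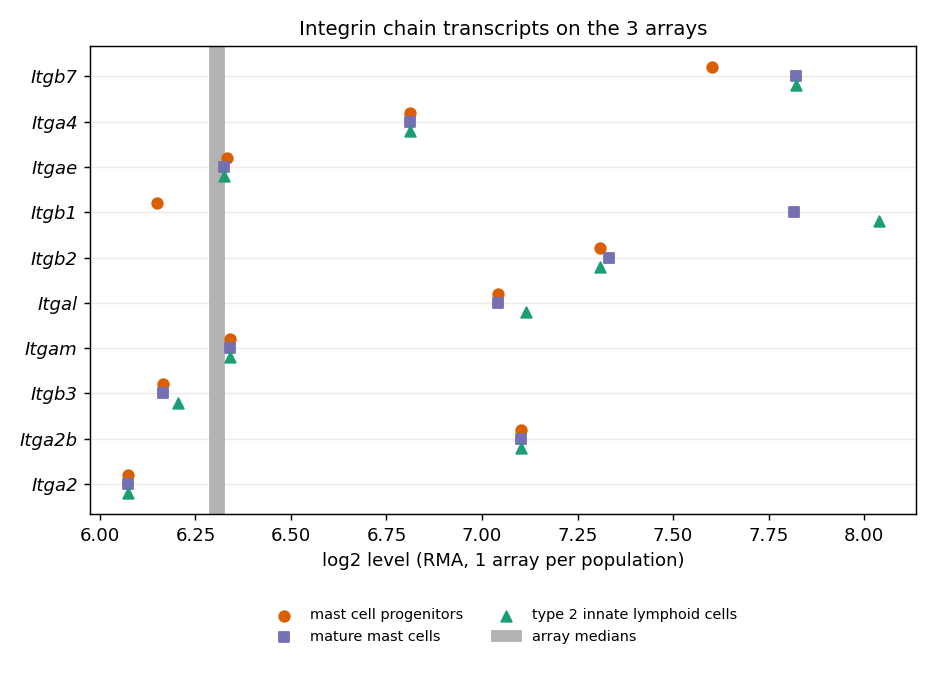
Log2 level (horizontal axis) of the 10 integrin chains (rows) on the array of mast cell progenitors (circles), mature mast cells (squares) and type 2 innate lymphoid cells (triangles), with the array medians as a grey band; there are no error bars because each population has 1 array. Itgb1 is at 6.15 in progenitors against 7.82 and 8.04, while for 8 chains the 3 symbols lie within 0.1 of each other, as they do for 64.4% of all genes.

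Itgb7 differed little, although its protein separated the mast cell populations. Its transcript was at 7.60 in progenitors, 7.82 in the mature mast cells and 7.82 in the innate lymphoid cells, the last pair being exactly equal. All these levels lay above the array medians. Progenitors, sorted for high β7 protein, were thus at -0.22 against mature mast cells, sorted for lower β7 protein, which is 1.16-fold lower. The direction was opposite to that of the protein gate, at a size that cannot be judged without replicates. A difference in this direction of at least this size was seen for 6.49% of all 22180 genes. That share counts the 58.3% of genes with exactly equal levels in both mast cell populations, so it is larger among genes that differ at all. The amount of protein on the cells is given in the labels as gate words alone, with no intensity, so transcript and protein can be set side by side by direction and not by size.

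The deposited levels of the α partners of β7 showed almost no difference. Itga4, which encodes α4, was at 6.81 on each of the 3 arrays, with the same deposited value to the last digit. As 46 other probe sets had the same 3 values, this tie does not by itself show equal abundance. A second probe set names Itga4 together with Cerkl, and it stood at 5.48 on each array. Itgae, which encodes αE, was at 6.33 in each population, with progenitors above the others by 0.0083. Levels of different chains are not compared with each other, since probe sets differ in brightness.

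The β2 family, which binds ICAM proteins and complement fragments, was also level in its deposited values. Itgb2, the β2 chain gene, was at 7.31 in progenitors, 7.33 in the mature mast cells and 7.31 in the innate lymphoid cells. Itgal, which encodes the αL chain of LFA-1, was at 7.04, 7.04 and 7.12 in the same order. Itgam, which encodes the αM chain of Mac-1 (CD11b), was at 6.34 on each array. The highest of these arrays exceeded the lowest by 0.02 for Itgb2 and 0.07 for Itgal.

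The platelet and collagen receptor chains gave the same picture. Itgb3, which encodes the β3 chain, was at 6.17 in progenitors, 6.17 in the mature mast cells and 6.20 in the innate lymphoid cells, below the median of each array. Itga2b, which encodes αIIb (CD41), the partner of β3 on platelets and on early haematopoietic cells, was at 7.10 on each array. Itga2, the gene for the α2 chain (CD49b) of a collagen receptor with β1, was at 6.07 on each array, again below the medians. In all, 7 of the 10 chains lay above the median on each of the 3 arrays, 2 (Itgb3 and Itga2) below it on each, and Itgb1 below it in progenitors alone. Of the 7, Itgae (6.33) and Itgam (6.34) were barely above medians of 6.30 to 6.32. The share of all genes above the median on each array was not counted, so this tally does not show that 7 chains were expressed.

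A chain was counted as different when the levels of a pair of populations were 2 or more units apart (4-fold) and the brighter of them exceeded the median of its array. By this rule 0 of 10 chains differed between progenitors and mature mast cells, where 0.947% of all genes did. Between progenitors and innate lymphoid cells the count was 0 of 10, against 1.10% of all genes, and between mature mast cells and the lymphoid population 0 of 10, against 0.974%. With a difference of at least 1 (2-fold), Itgb1 alone counted in each comparison with progenitors, 1 of 10 chains, lower in progenitors. The share of all genes that were 2-fold lower in progenitors was 1.93% against mature mast cells and 1.88% against innate lymphoid cells. At 2-fold 0 of 10 chains differed between mature mast cells and innate lymphoid cells, against 2.60% of all genes. The median difference of the 10 chains was 0 in each comparison, as it was over all genes. The comparisons share arrays, so the low progenitor level of Itgb1 enters both of its counts.

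Bright genes were low on the progenitor array more often than on the other arrays, as a count added with the values known shows. It took the 1257 genes that exceeded 7.5 on both of the other arrays and differed there by under 2-fold. The progenitor level lay 2-fold or more under both for 114 of them (9.07%), Itgb1 included. With mature mast cells as the low array the share was 0.542% (of 1106), and with innate lymphoid cells 1.31% (of 1144). The part of this tendency in the Itgb1 value was not tested. Itgb7 also belongs to the 1257 genes and is not among the 114.

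Equal levels were common, and for some chains they were also the levels of many unrelated probe sets. Of the 10 chains 4 had exactly 1 value on all 3 arrays (Itga4, Itgam, Itga2b and Itga2), 5 had the same value on a pair of arrays, and Itgb1 alone had 3 different values. Over all genes 47.9% had 1 value on all 3 arrays. A range under 0.1 was found for 8 of the 10 chains and for 64.4% of all genes, so level values were common in general. The 3 values of Itgam were those of 81 other probe sets as well, the values of Itga2 those of 59, the values of Itga4 those of 46 and the values of Itga2b those of 24. The other 6 chains shared their set of 3 values with 0 other probe sets. Of the 41345 probe sets on the arrays, 31.7% had the same 3 values as another one. The progenitor level of Itgb1 was one of these repeated values, shared with 43 other probe sets on that array, whereas its levels on the other arrays were shared with 0. The innate lymphoid level of Itgal was likewise shared with 43 others. A tie in this table therefore does not by itself show equal abundance of a transcript.

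**Figure D2:**
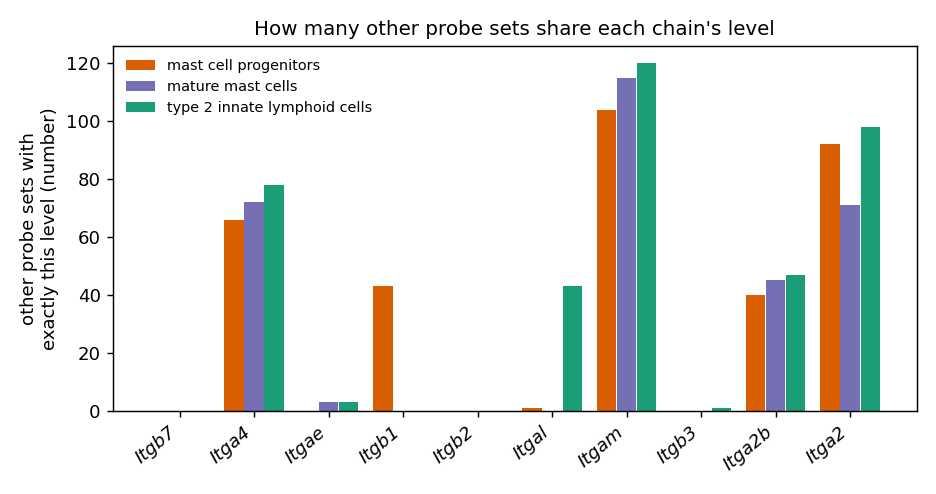
Number of other probe sets on the same array that have exactly the same deposited level as each chain (vertical axis), for the 10 chains (horizontal axis) and the 3 arrays (colours). Itga4, Itgam, Itga2b and Itga2 share their level with 40 to 120 other probe sets on each array, and Itgb1 with 43 on the progenitor array and 0 on the others.

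The rest of the integrin family was compared in the same way. Of the 26 chains of the mouse family 25 were measured, and Itga10 was not analysed here. Of the 15 chains outside the 10 above, 0 reached 2-fold in any comparison. Of all genes, 2.44% did so between the mast cell populations, 2.65% between progenitors and innate lymphoid cells and 2.60% between mature mast cells and the lymphoid population, so 0 of 15 does not set these chains apart. Their median difference was 0 in each comparison, as over all genes. Itga9, which encodes the α9 chain that pairs with β1, had the widest range of these, at 7.27 in mature mast cells and 6.76 in each of the other populations. Mature mast cells were above both by 0.51, or 1.42-fold. Itgav, which encodes the αV chain of vitronectin receptors, was at 6.96 on each array by its brighter probe set, and Itga7, a laminin receptor chain gene, was at 6.91, 6.91 and 7.03.

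**Figure D3:**
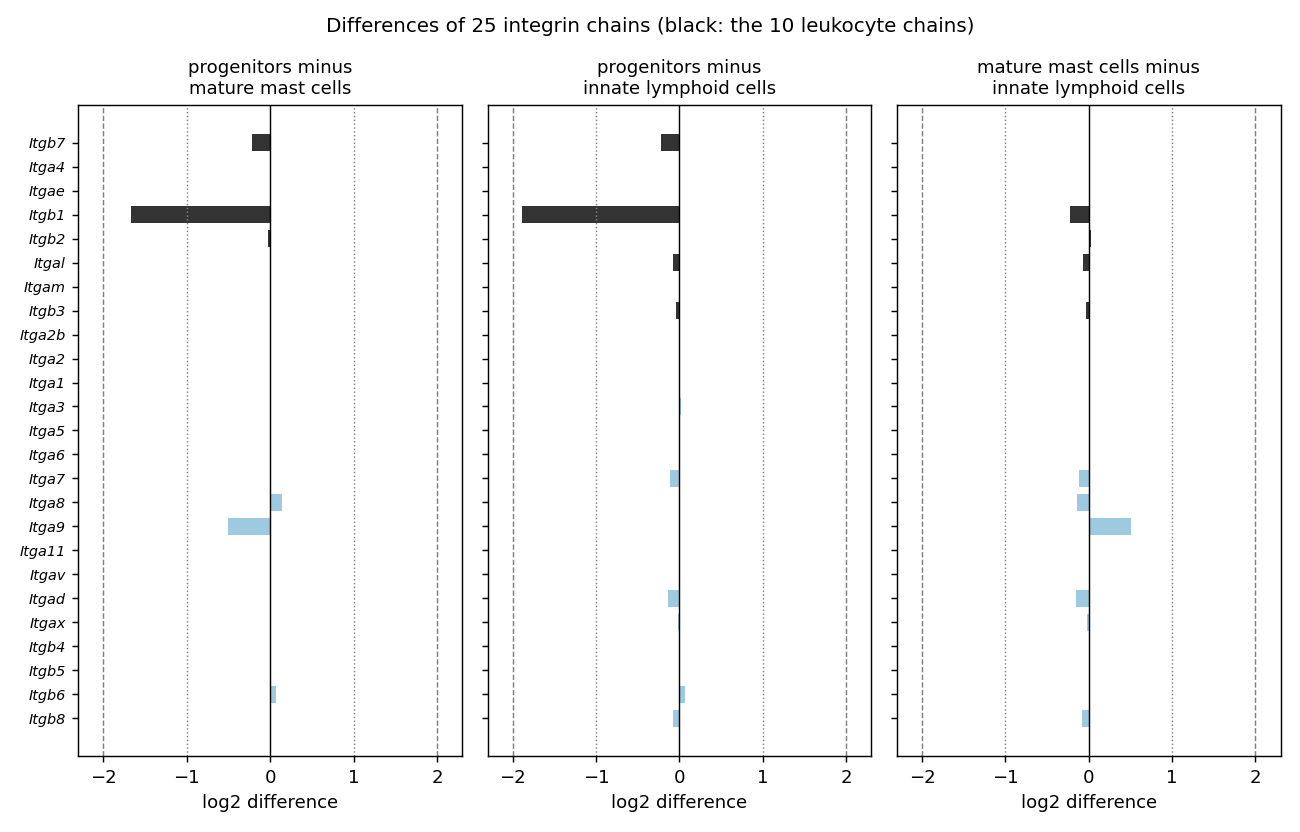
Log2 difference (horizontal axis) of 25 integrin chains (rows) in the 3 comparisons (panels), with dotted lines at 2-fold and dashed lines at 4-fold; black bars are the 10 leukocyte chains and blue bars the other 15. Itgb1 passes 2-fold in both comparisons with progenitors, and Itga9 follows at 0.51 in size in both comparisons with mature mast cells.

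Integrins bind ligand firmly only after signals inside the cell switch them on, through the small GTPase Rap1, its effector RIAM and the talin and kindlin proteins that grip the β chain tail. Of 34 listed genes of this machinery 30 were measured. In the comparison of progenitors with innate lymphoid cells, 2 of 30 were past 4-fold on the lower side and 0 on the higher side, whereas 0.888% of all genes were lower and 0.207% higher at that size. Rap1b, the Rap1 gene measured here, was at 8.52 in progenitors, 9.72 in the mature mast cells and 11.71 in the innate lymphoid cells by the brighter of its probe sets. The order ran from progenitors to innate lymphoid cells, the latter 9.08-fold above progenitors and 3.96-fold above mature mast cells. The second probe set of Rap1b gave 5.77, 11.03 and 12.17, with the same order. The probe sets disagree in size, with progenitors at -1.20 by one and -5.26 by the other against mature mast cells.

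Apbb1ip, which encodes RIAM, was at 6.88 in progenitors, 7.18 in the mature mast cells and 8.91 in the innate lymphoid cells. Innate lymphoid cells stood apart, 4.08-fold above progenitors and 3.33-fold above mature mast cells. Fyb, which encodes the adaptor ADAP that links immune receptors to integrin activation, followed another order, at 7.06 in progenitors, 8.67 in the mature mast cells and 7.67 in the innate lymphoid cells. Mature mast cells were 3.05-fold above progenitors for Fyb, and 1.99-fold above innate lymphoid cells. Rap1b and Fyb were the genes past 2-fold between the mast cell populations, both lower in progenitors, 2 of 30 against 1.93% of all genes. Rap1b and Apbb1ip were those past 2-fold between mature mast cells and the lymphoid population, both higher in the latter, 2 of 30 against 1.26% of all genes. Neither Rap1b nor Fyb is among the 114 of 1257 bright genes (9.07%, as given above) that were low on the progenitor array. Rap1b differed by 3.96-fold between the other arrays, so it lay outside the 1257. Fyb lay inside, but its progenitor level was 1.53-fold under innate lymphoid cells, short of the 2-fold limit. Any part of a wider tendency of that array in these values was not tested.

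Exact ties were about as common in the machinery as over all genes. Between progenitors and mature mast cells 17 of 30 (56.7%) were tied, against 58.3% of all genes. Cd47, which encodes a surface protein that associates with integrins, was at 7.95 in progenitors, 7.81 in the mature mast cells and 8.53 in the innate lymphoid cells. Pxn, the gene of the adhesion adaptor paxillin, was at 7.91 on each array. Actn4, the gene of an actinin that ties adhesions to actin, was at 8.04, 8.04 and 8.03. The genes Rap1a, Ptk2, Ilk and Lims2 of this list were not analysed here.

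**Figure D4:**
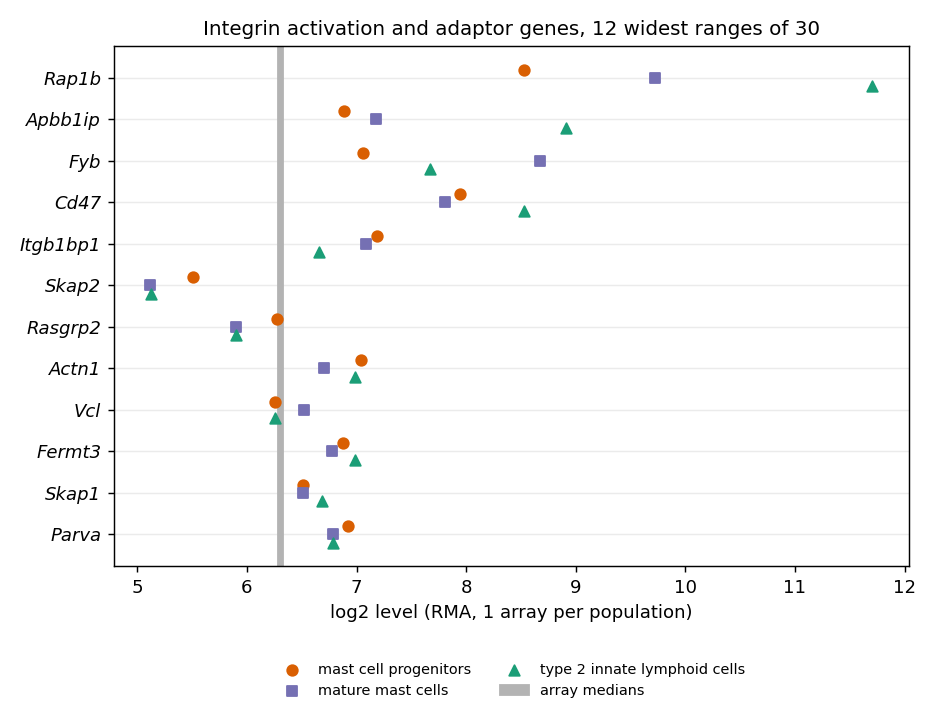
Log2 level (horizontal axis) of the 12 genes with the widest range among 30 genes of integrin activation and adhesion adaptors (rows), with symbols for the 3 populations and the grey band of array medians as in the plot of the integrin chains. Rap1b runs from 8.52 in progenitors to 11.71 in innate lymphoid cells, and Apbb1ip and Fyb are the others that span more than 1 unit.

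Of 20 listed ligand genes 19 were measured and 0 reached 2-fold in any comparison, where the same shares of all genes (2.44%, 2.65% and 2.60%) leave few to be expected among 19. Madcam1, which encodes the addressin bound by α4β7, was at 7.41 on each array. Icam1, a ligand gene of the β2 integrins, was at 7.29 on each array, and Col4a1, a basement membrane collagen gene, at 6.84. Spp1 was not analysed here.

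The other proteins of the sort were set beside their transcripts in the same way as Itgb7. Kit was at 6.88 in progenitors, 10.29 in the mature mast cells and 6.63 in the innate lymphoid cells, and Fcer1a at 5.37, 8.87 and 5.05. For each, the progenitor level was closer to that of innate lymphoid cells than to that of mature mast cells, although the gate asked for the protein on progenitors. The Fcer1a levels of progenitors and innate lymphoid cells lay below their array medians of 6.32 and 6.30. Those levels therefore do not show that the Fcer1a transcript was present there, and their closeness carries little information. Il2ra, which encodes CD25, was at 6.58 in both mast cell populations and 7.25 in innate lymphoid cells. The genes of CD16/32, Fcgr3 and Fcgr2b, were level, with Fcgr3 at 7.37, 7.37 and 7.35 and Fcgr2b at 6.95 on each array. Il1rl1, which encodes ST2, was not analysed here.

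Genes with a pattern like that of the chains were found by the distance between their 3 levels, each centred on the gene's own mean, over the 3 arrays. Provisional, Mir and Snor names were left out. Among 782 genes with a range of at least 1, the closest to Itgb1 was Cdc42, which encodes a small GTPase of the actin skeleton, at 8.97 in progenitors, 10.66 in the mature mast cells and 10.79 in the innate lymphoid cells (distance 0.071). The next were Luc7l3 (distance 0.082), Rnasek (0.127), Tpm3 (0.145) and Pfdn5 (0.161). All 5 had their lowest level in progenitors, which follows from choosing them by closeness to Itgb1 and is no separate result. Of 9661 genes with a mean above the median of all genes, 147 lay within a distance of 0.1 of Itgb7, the closest being Hipk1 at 7.71, 7.93 and 7.93. A profile of 3 values with a range this small fits many genes, so the names closest to Itgb7 carry little information.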

How the data were processed

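Levels are the deposited log2 values of 41345 probe sets on 3 whole-transcript arrays, which the authors produced by RMA according to the labels (per the submitters' processing notes). RMA generally subtracts background, equalises the arrays and combines probes through median polish. Software, version and genome build are not given in the sources used here. The values run from 2.23 to 13.7. Amplifying RNA of 100 cells may distort the proportions of transcripts, and the number of arrays limits the precision.

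Names come from the gene table of the platform, in which 23521 name 1 gene, 1814 several and 16010 none. The 10 chains have 1 single-gene probe set each, and all 10 Entrez identifiers matched the RefSeq table. Other genes were represented by their probe set with the highest mean. Differences of log2 levels were counted at 2 and at 1, with the brighter array above its median over single-gene probe sets. The code of the calling rule was checked on simulated data with changes larger than the cut and little noise. That check does not measure error on these arrays. Work was done in Python 3.11.15 with pandas 2.3.3. The chains and gene lists were chosen with earlier results of these data known, and the counts of shared values were added after the data were examined. From the lists, genes past 2-fold, up to 3 with the highest means, and the sort markers were named. Alternatives were other floors, scalings and probe set rules.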

Additional observations from a re-analysis of the deposited data

How the results depend on the processing

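The counts of integrin chains past 4-fold and past 2-fold stayed the same in all 36 combinations of the 3 comparisons, both sizes and 6 alternatives. They were a floor raised to the 75th percentile, no floor, a common array median, quantile normalization, the mean of all single-gene probe sets and the probe set with the largest difference. The last pair cannot change a chain, because each has 1 single-gene probe set. Changing the floor could not add a chain, because the widest range outside Itgb1 was 0.22, that of Itgb7. A higher floor could only have removed Itgb1. Most of the 36 equal counts were therefore bound to be equal. No member difference moved by more than 0.06 on the log2 scale. The Itgb1 difference between progenitors and mature mast cells ran from -1.69 to -1.65, that between progenitors and innate lymphoid cells from -1.90 to -1.88, and the Itgb7 difference between the mast cell populations from -0.24 to -0.16. These alternatives change the scaling of the same 3 arrays and say nothing about differences between animals, sorts or amplifications. No paired analysis was possible because each population has 1 array and the labels give no replicate numbers.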
